A study of Mus musculus with 189 samples.

Results

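The transcript levels of MII oocytes, which are mature eggs arrested in the second meiotic metaphase, were compared with those of zygotes, the fertilized 1-cell embryos, in mouse. Both groups were chosen by their labels, and they comprised 11 MII oocytes and 14 zygotes of the 189 samples of the series, with a further oocyte, MII oocyte 5, left out. The genes were the 156 of 192 quantitative PCR assays that are marked as passed in the deposited table. F1 females from a C57BL/6 by DBA/2 cross were superovulated to obtain the eggs, and those used for embryos were mated to C57BL/6 males. MII oocytes were taken 14 h after hCG and zygotes 14 to 16 h after hCG, and cumulus cells were removed from both with hyaluronidase. No transgene, knockout or drug distinguished the groups. The age of the females, the number of females per group and the female from which each cell came are not given, so that p-values measure the spread between single cells, which may be partly technical or shared by cells of 1 female. Each cell was lysed and its RNA reverse transcribed and preamplified for 18 cycles with the primers of all assays before quantitative PCR on a microfluidic chip.

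A fully grown oocyte transcribes little, and it lives on RNA and protein stored during growth. Fertilization releases the metaphase arrest, restarts the cell cycle, and is followed by remodelling of the maternal and paternal chromatin and by degradation or new use of the stored transcripts, while the main onset of embryonic transcription falls in the 2-cell embryo of the mouse. A difference in RNA between MII oocyte and zygote is therefore read in cells that differ by fertilization and by at most the first hours after it.

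The deposited unit is the cycle threshold (Ct), the PCR cycle at which a product becomes visible, in which a lower value means more transcript and a value of 30 marks a gene that was not detected. The raw level used here is 30 minus the Ct and stands for the content of 1 cell. The control-normalized level is the raw level minus the mean raw level of Hnrnpr, Ssu72 and Ube2e1 in the same cell. A step of 1 on either scale is 1 PCR cycle and is close to a doubling: in dilutions of embryonic stem cell RNA, the median slope was 1.05 per doubling between 25 and 200 pg (4 samples) and 1.14 between 32 and 800 pg (3 samples). Both scales are called log2 below, and levels are compared between cells and never between genes, since assays differ in efficiency.

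The markers fixed for the oocyte were present in both groups. Dazl, an RNA-binding protein of germ cells, was detected in all 25 cells, and ZP3, a zona pellucida protein of the oocyte, in 11 of 11 MII oocytes and 13 of 14 zygotes. Of the markers of later lineages that such cells should lack, Hand1 was detected in no cell, which with exact binomial limits allows up to 28.5% of MII oocytes and 23.2% of zygotes. Krt19 was detected in 1 MII oocyte and no zygote, Nanog in no MII oocyte and 2 zygotes, and Sox17 in 1 MII oocyte and 4 zygotes. Cdx2, a trophectoderm transcription factor, was detected in 24 cells at a raw level of 7.03 to 11.9, and Sox2 in all 25 at 11.20 to 15.19. The panel held no defining marker of cumulus cells.

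The mean raw level of the 3 control genes differed between the groups by less than the spread between cells. It ran from 16.5 over a median of 17.1 to 17.7 in MII oocytes and from 16.6 over a median of 17.0 to 18.1 in zygotes, so that the groups overlapped over most of their ranges, with zygotes 2 and 3 above and MII oocyte 8 below all cells of the other group. The means were 17.1 ± 0.325 (SD, n = 11) and 17.1 ± 0.471 (SD, n = 14), and their difference of −0.011 had p = 0.948 in a two-sided permutation test with 100000 permutations. The median raw level over the 121 genes detected in every cell was 17.07 in MII oocytes and 16.91 in zygotes, a difference of −0.155 with p = 0.327 in the same permutation test. A zygote lacked a signal for 14.9 ± 2.07 genes and an MII oocyte for 12.4 ± 2.77, a difference of 2.49 genes that had p = 0.0203 before and 0.0608 after Benjamini-Hochberg adjustment over these 3 permutation tests.

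None of the 3 control genes passed the test. The raw difference was −0.29 ± 0.20 (SE, adjusted p = 0.461) for Hnrnpr, an RNA-binding protein of splicing complexes, 0.11 ± 0.16 (SE, adjusted p = 0.686) for Ssu72, a phosphatase of RNA polymerase II, and 0.14 ± 0.19 (SE, adjusted p = 0.675) for Ube2e1, a ubiquitin-conjugating enzyme. On the control-normalized scale the 3 differences were −0.28, 0.12 and 0.16 and sum to zero by construction.

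Zygotes 1 to 3 stood apart from zygotes 4 to 14, and the study's own sample list also names them in a separate series from the other 11. Their mean raw level of the control genes was 17.6 to 18.1, against 16.604 to 17.183 in zygotes 4 to 14, and 16 to 19 genes were not detected in them, against 12 to 18. Among the oocytes, MII oocyte 6 had the largest mean absolute deviation from its group, 0.843 on the control-normalized scale. The oocyte left out, MII oocyte 5, had a control mean of 14.9 and 26 undetected genes. What sets these cells apart was not tested, and counts are given below with and without them.

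**Figure D1:**
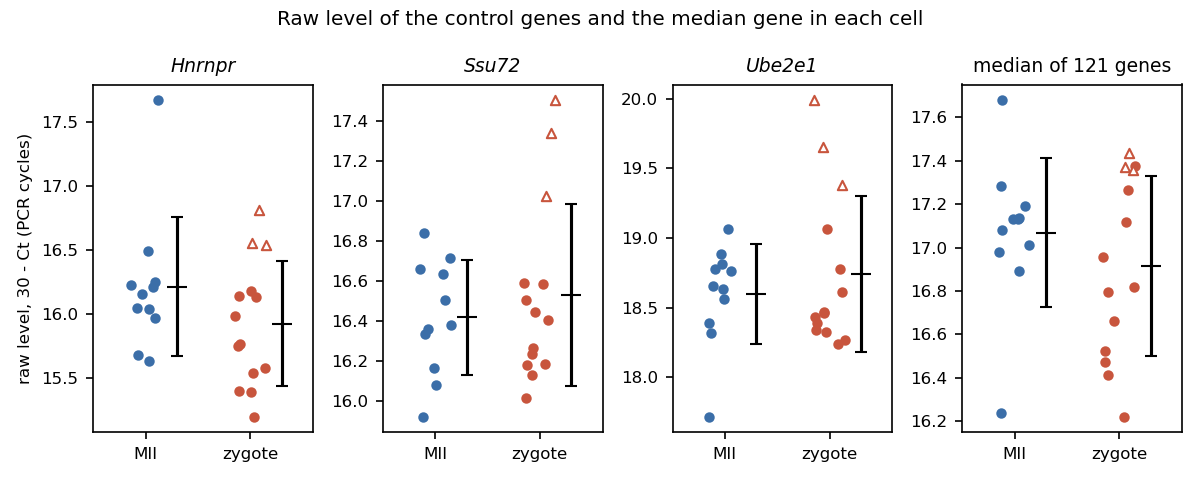
Raw level, 30 minus the Ct in PCR cycles, of each control gene and of the median over 121 genes in every cell; blue points are 11 MII oocytes, red points zygotes 4 to 14, open triangles zygotes 1 to 3, and black bars the mean with SD of each group. The 3 triangles lie above all other zygotes in each control gene, and the groups overlap in all 4 panels.

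On the control-normalized scale, 21 of 156 genes (13.5%) passed an adjusted p of 0.05, of which 19 (12.2%) were lower in zygotes and 2 (1.28%) were higher. On the raw scale 7 genes passed (4.49%), of which 6 were lower (3.85%) and 1 was higher (0.641%). Tada2a, Fgfr2, Dmap1, Mapk3 and Setdb2 fell and Yap1 rose on both scales, and Tada3 fell on the raw scale alone. The median difference of all 156 genes was −0.18 on the control-normalized and −0.19 on the raw scale, so that a gene with a small negative difference moved with the bulk of the panel. With each cell centred on its own median gene instead, the median difference was −0.03, and 11 genes passed, 3 higher and 8 lower. In the deposited normalized table, which is relative to Gapdh, Hspa8 and Lmnb1, 11 passed, 4 higher and 7 lower. The raw differences of these 3 genes, whose assays are marked as not passed, were −0.09, −0.93 and 0.51. The excess of lower over higher calls was thus smaller with either of these scalings.

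Zygotes 1 to 3 bear more on the raw counts than on the control-normalized ones. Without them, 17 genes passed on the control-normalized scale, 3 higher and 14 lower and 15 of them among the 21, and 21 passed on the raw scale, 1 higher and 20 lower, with all 7 of the full comparison among them. Without these zygotes and MII oocyte 6, 23 genes passed on the control-normalized scale, 5 higher and 18 lower, and 28 on the raw scale, 1 higher and 27 lower. Cxxc1, Id2, Setdb2, Pecam1, Mecom and Atrx no longer passed on the control-normalized scale when zygotes 1 to 3 were left out, with adjusted p from 0.0569 to 0.119, and Suv39h2 and Setd8 passed in addition.

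The oocyte left out bears on these calls as well. MII oocyte 5 had control-normalized levels of −2.86 for Tada2a, −3.88 for Dmap1 and −5.32 for Fgfr2, below every zygote, and of −0.13 for Yap1, within the range of the zygotes. With it added, 4 genes passed, Yap1 (0.67), Mapk3 (−0.74), Jmjd6 (−0.53) and Jhdm1d (−0.42), while Tada2a (−1.13, adjusted p = 0.0542), Fgfr2 (−1.32, adjusted p = 0.0542) and Dmap1 (−0.60, adjusted p = 0.557) did not. In a fit that took in all stages of the series, which share 1 estimate of the spread, Tada2a, Dmap1 and Yap1 passed and Fgfr2 did not (adjusted p = 0.125).

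**Figure D2:**
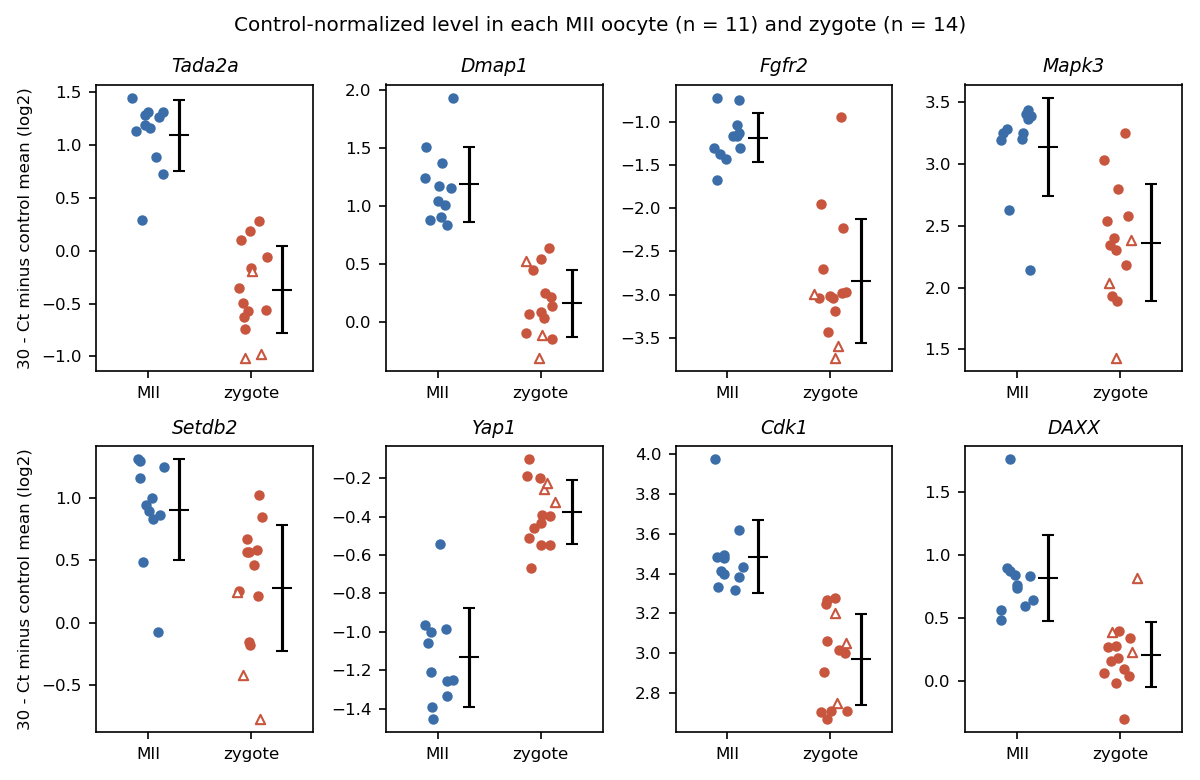
Control-normalized level (30 minus the Ct minus the mean of the 3 control genes, log2) of 8 genes in every MII oocyte (blue) and zygote (red, with zygotes 1 to 3 as open triangles); black bars give the mean with SD, and each panel has its own axis. Tada2a, Dmap1 and Cdk1 do not overlap between the groups, and Yap1 lies higher in zygotes.

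Of the 3 largest decreases that passed, Tada2a and Dmap1 are genes of histone acetylation. Both were markers fixed for this comparison. The list was also chosen with earlier results of these data known, so that its counts are descriptions only. Tada2a, an adaptor subunit of the ATAC acetyltransferase complex (chromosome 11, 84078920 to 84129644 in GRCm38.p6), had a control-normalized level from 0.29 over a median of 1.19 to 1.45 in MII oocytes, and from −1.01 over a median of −0.42 to 0.28 in zygotes. All 14 zygotes lay below all 11 oocytes. The difference was −1.46 ± 0.15 (SE, limma adjusted p = 1.73e-07), a level 2.75-fold higher in oocytes, and it was −1.47 on the raw scale (adjusted p = 1.25e-07). In zygotes 4 to 14 alone it was −1.36, and in zygotes 1 to 3 it was −1.82.

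Dmap1, a subunit of the TIP60 acetyltransferase complex and a partner of the DNA methyltransferase Dnmt1 (chromosome 4, 117674681 to 117682321), ran from 0.83 over a median of 1.16 to 1.93 in MII oocytes and from −0.31 over a median of 0.11 to 0.63 in zygotes on the control-normalized scale. Here too the groups did not overlap. The difference was −1.02 ± 0.12 (SE, adjusted p = 9.83e-07), or 2.03-fold, and −1.03 on the raw scale (adjusted p = 0.00133). Hat1, the enzyme that acetylates newly made histone H4, ran from 1.57 over a median of 1.95 to 2.47 in oocytes and from 0.99 over a median of 1.37 to 1.85 in zygotes. A few zygotes reached into the range of the oocytes, but 11 of 14 lay below all of them. Its control-normalized difference was −0.58 (adjusted p = 3.50e-04) and the raw difference of −0.59 did not pass (adjusted p = 0.101), but passed without zygotes 1 to 3 (−0.77, adjusted p = 0.00467). Tada3, a subunit that ATAC shares with the SAGA complex, fell by 0.35 on the raw scale (adjusted p = 0.0275), while its control-normalized difference of −0.33 did not pass (adjusted p = 0.0651). Of the 7 genes of histone acetylation and deacetylation, 3 fell on the control-normalized scale, none rose and 4 did not pass, beside 12.2% lower among all genes, with a median of −0.44 beside −0.18 for all genes. Among those that did not pass, the deacetylases Sirt1, Hdac1 and Hdac4 had differences of −0.44, −0.13 and −0.05. The list median is thus the value of Sirt1 alone, whose difference was −1.72 in zygotes 1 to 3 and −0.09 in zygotes 4 to 14.

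Fgfr2, a receptor of fibroblast growth factors (chromosome 7, 130162451 to 130266808), had a control-normalized level from −1.68 over a median of −1.17 to −0.71 in MII oocytes and from −3.73 over a median of −3.01 to −0.94 in zygotes. A single zygote lay within the range of the oocytes, zygote 8, which was the highest of its group, and 13 of 14 lay below. The difference of −1.66 ± 0.23 (SE, adjusted p = 5.87e-06) was the largest among genes that passed, 3.16-fold, and it was −1.67 on the raw scale (adjusted p = 3.64e-05). Its SD was 0.285 in oocytes and 0.723 in zygotes.

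Mapk3, the kinase ERK1 of the MAP kinase pathway that holds the metaphase arrest (chromosome 7, 126759626 to 126765816), ran from 2.14 over a median of 3.25 to 3.44 in oocytes and from 1.43 over a median of 2.37 to 3.25 in zygotes. The groups overlapped, and 13 of 14 zygotes lay below the mean of the oocytes. The difference was −0.78 on the control-normalized scale (adjusted p = 0.00306) and −0.79 on the raw scale (adjusted p = 0.0146). Cdk1, the catalytic subunit of the M-phase kinase whose activity falls on exit from meiosis, ran from 3.32 over a median of 3.43 to 3.97 in oocytes and from 2.67 over a median of 3.01 to 3.28 in zygotes, with no overlap. The difference was small but tight, −0.51 ± 0.09 (SE, adjusted p = 2.09e-04) on the control-normalized scale, and −0.52 (adjusted p = 0.115) on the raw scale, where it passed without zygotes 1 to 3 (−0.75, adjusted p = 0.00242).

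Yap1, the transcriptional coactivator that the Hippo pathway restrains (chromosome 9, 7931999 to 8004638), was the gene that rose on both scales. Its control-normalized level ran from −1.46 over a median of −1.21 to −0.54 in MII oocytes and from −0.67 over a median of −0.39 to −0.10 in zygotes. The 11 highest zygotes exceeded every oocyte, and the other 3 exceeded all oocytes but the highest one. The difference was 0.76 ± 0.09 (SE, adjusted p = 9.66e-07), or 1.69-fold, and 0.75 on the raw scale (adjusted p = 0.00980). It was 0.87 in zygotes 1 to 3 and 0.73 in zygotes 4 to 14. None of the other Hippo genes passed: the difference was −0.57 for Tead4, the DNA-binding partner of Yap1 (adjusted p = 0.270), −0.06 for the kinase Lats2 and 0.07 for the upstream regulator Nf2. Mecom, a PR-domain zinc finger gene, was the other gene called higher, by 0.56 ± 0.18 (SE, adjusted p = 0.0357), and 1 zygote exceeded all oocytes. Mecom did not pass on the raw scale (0.55, adjusted p = 0.128).

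**Figure D3:**
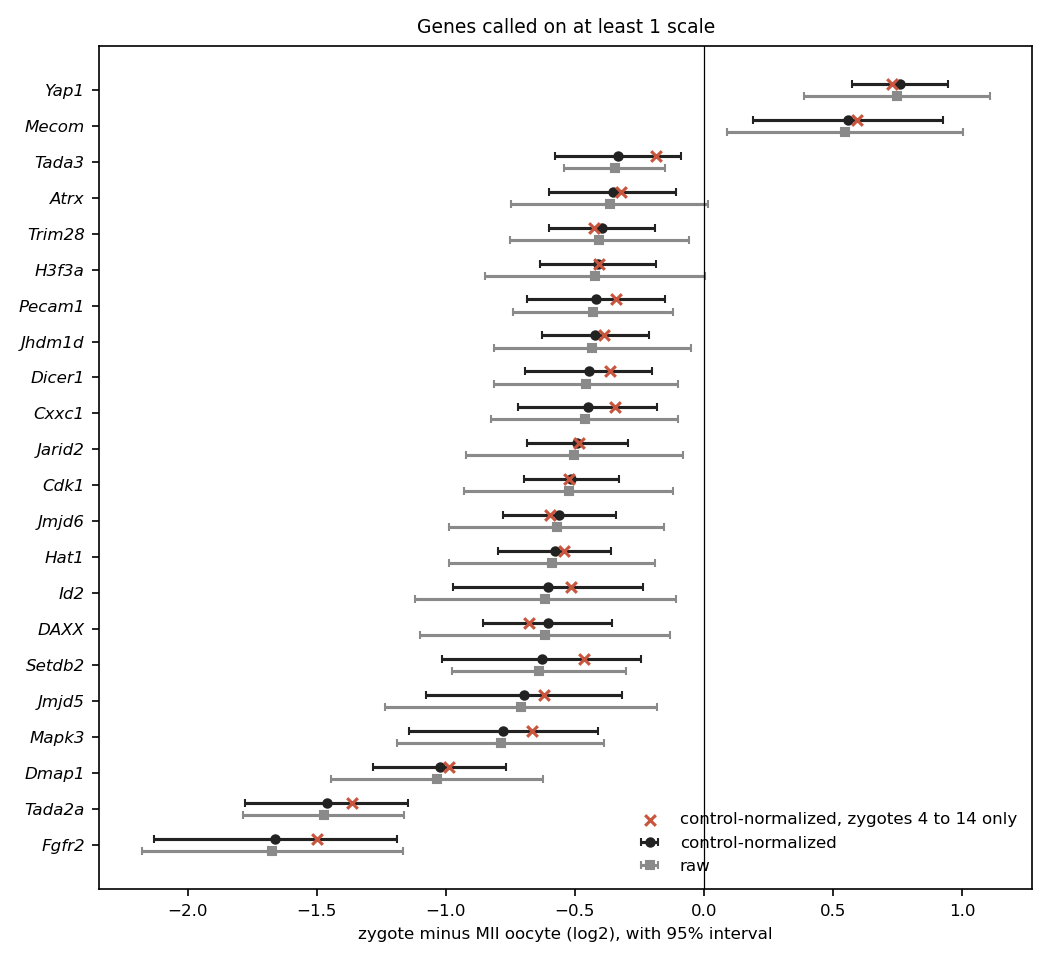
Difference of zygotes from MII oocytes (log2, with 95% interval) for the 22 genes that passed on at least 1 scale; black points are control-normalized, grey squares raw, and red crosses control-normalized with zygotes 4 to 14 only. Fgfr2, Tada2a and Dmap1 lie at −1 or beyond, Yap1 and Mecom are the only 2 right of zero, and the raw intervals are the wider ones for most genes.

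Setdb2, a SET-domain H3K9 methyltransferase (chromosome 14, 59402009 to 59440880), ran from −0.08 over a median of 0.95 to 1.31 in oocytes and from −0.78 over a median of 0.36 to 1.03 in zygotes. The groups overlapped over most of their ranges. The difference was −0.63 ± 0.19 (SE, adjusted p = 0.0216) on the control-normalized and −0.64 ± 0.16 (SE, adjusted p = 0.0166) on the raw scale, and without zygotes 1 to 3 the control-normalized difference was −0.47 (adjusted p = 0.0838). Trim28, the corepressor KAP1, had a difference of −0.39 (adjusted p = 0.00749). On the raw scale Trim28 was −0.65 in zygotes 4 to 14 and 0.51 in zygotes 1 to 3, so that the full raw difference of −0.41 did not pass (adjusted p = 0.138). Of the 9 genes of H3K9 methylation and HP1 proteins, 2 fell and 7 did not pass, beside 12.2% lower among all genes, with a median of −0.39 beside −0.18. This median leans on undetected cells, since only 6 of the 9 were detected in every cell. Undetected cells enter the differences of Ehmt2 (−2.10), Suv39h1 (−1.95) and Cbx3 (−1.33). Cbx5, Cbx1, Suv39h2 and Setdb1, detected in every cell, had −0.11, −0.10, 0.30 and 0.32, beside a median of −0.16 over all 121 such genes.

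Jarid2, a cofactor of the H3K27 methyltransferase PRC2, ran from 0.20 over a median of 0.47 to 1.11 in oocytes and from −0.31 over a median of −0.06 to 0.43 in zygotes, and 12 of 14 zygotes lay below all oocytes. Its control-normalized difference was −0.49 (adjusted p = 4.95e-04). The catalytic subunits Ezh1 and Ezh2 had differences of −0.27 and 0.10, and the core subunits Eed and Suz12 of −0.30 and −0.16, none of which passed. None of the 9 PRC1 genes passed, beside 13.5% of all genes, and Pcgf1, with the smallest p among them, differed by −0.40 (adjusted p = 0.109).

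DAXX and Atrx, which together place histone H3.3 into chromatin outside replication, were both lower in zygotes, as was H3f3a, one of the genes for H3.3 itself. DAXX ran from 0.49 over a median of 0.76 to 1.76 in oocytes and from −0.30 over a median of 0.21 to 0.82 in zygotes, and 13 of 14 zygotes lay below every oocyte. The control-normalized differences were −0.61 for DAXX (adjusted p = 7.00e-04), −0.41 for H3f3a (adjusted p = 0.00981) and −0.35 for Atrx (adjusted p = 0.0499), and none passed on the raw scale. Without zygotes 1 to 3 all 3 passed there, with DAXX at −0.91, H3f3a at −0.64 and Atrx at −0.55 (adjusted p up to 0.0280), and in zygotes 1 to 3 the raw differences were 0.45, 0.36 and 0.31. On the control-normalized scale Atrx was at the threshold, and with 1 oocyte or zygote left out at a time it passed in 7 of 25 fits. The other chaperones did not pass: Hira had a difference of 0.46, ASF1A of 0.19, ASF1B of −0.12 and DEK of −0.09. H3f3b, the second gene for H3.3, was at a raw level of 19.29 to 21.98 in 24 cells and not detected in MII oocyte 10, and that 1 value gives it a difference of 2.00 (adjusted p = 0.449).

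Among 24 histone demethylases and JmjC-domain proteins, 3 fell on the control-normalized scale and none rose, a share close to the 12.2% lower among all genes, with a median of −0.20 beside −0.18. Jmjd6 was 0.56 lower (difference −0.56, adjusted p = 4.17e-04), with 14 of 14 zygotes below the mean of the oocytes. Jmjd5, also known as Kdm8, had a difference of −0.70 (adjusted p = 0.00981) and Jhdm1d, a demethylase also known as Kdm7a, of −0.42 (adjusted p = 0.00436). None of these 3 passed on the raw scale, where adjusted p lay between 0.113 and 0.154. Without zygotes 1 to 3 all 3 passed there, with Jmjd6 at −0.83, Jhdm1d at −0.62 and Jmjd5 at −0.85 (adjusted p up to 0.0359), and in zygotes 1 to 3 the raw differences were 0.37, 0.24 and −0.20. The Ct of Jmjd5 had an SD of 1.46 over 3 samples of 200 pg stem cell RNA, beside a median of 0.177 over the genes detected in them. The other members did not pass, among them the H3K4 demethylases Kdm1a, Kdm1b, Kdm5b and Kdm5c with differences of 0.12, −0.25, 0.20 and −0.31 and the H3K27 demethylases Kdm6a and Kdm6b with 0.32 and −0.14, and 18 of the 24 lay below zero.

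Cxxc1, the CpG-binding subunit of the SETD1 H3K4 methyltransferase complexes, had a difference of −0.45 (adjusted p = 0.0189), and the catalytic subunits Setd1a and Setd1b of −0.25 and 0.08 did not pass. Dicer1, the enzyme that cuts small RNA precursors, had a difference of −0.45 (adjusted p = 0.00987) and was below all oocytes in 11 of 14 zygotes. Of 25 lineage and embryonic genes, Fgfr2, the helix-loop-helix inhibitor Id2 (−0.60, adjusted p = 0.0216) and the adhesion molecule Pecam1 (−0.42, adjusted p = 0.0284) fell, a share close to the 12.2% lower among all genes, while the pluripotency factors Pou5f1 and Sox2 differed by 0.18 and 0.23 and did not pass.

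No member was called among the 9 genes of H3K36 and H4K20 methylation or among the 4 oocyte and germline transcripts. Among all genes 13.5% were called, a share at which lists this small may well hold none. In the former list Whsc1l1 had the smallest p, with a difference of −0.39 (adjusted p = 0.246). Setd2 had a difference of −1.97 (adjusted p = 0.434) but was detected in only 13 of 14 zygotes, and the undetected zygote widens its spread. The median of Setd2 was 1.96 in oocytes and 1.26 in zygotes, and 14 of 14 zygotes lay below the mean of the oocytes. Dazl had the smallest p of the oocyte and germline transcripts, with a difference of −0.18 (adjusted p = 0.303). For ZP3 the difference was −2.29 (adjusted p = 0.346), and a zygote without a signal, at −16.7, widens its spread. ZP3 ran from 1.37 over a median of 2.11 to 2.51 in oocytes. In zygotes its median was 0.93 and its highest level 1.56, and 13 of 14 lay below all oocytes, the undetected one included. Of the 7 DNA methylation enzymes and partners, Dmap1 alone passed, beside 13.5% of all genes. Dmap1 is counted among the genes of histone acetylation as well. Dnmt3a, Dnmt3b, Tet3 and Dppa3, which guards maternal DNA methylation, had differences of 0.41, −0.16, 0.08 and −0.08. Of the 15 SMYD, PRDM and other SET genes, Mecom alone passed, beside the same 13.5%.

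**Figure D4:**
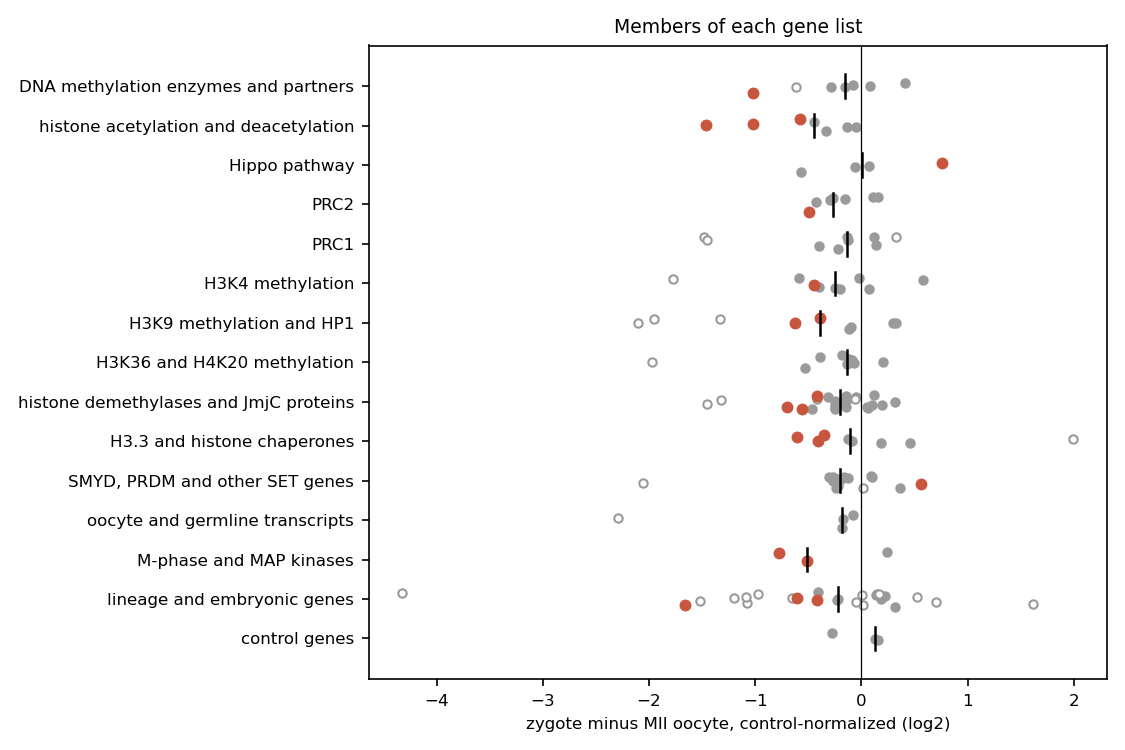
Control-normalized difference of zygotes from MII oocytes (log2) for each gene of 15 lists; filled red points passed an adjusted p of 0.05, grey points did not, open points are genes not detected in every cell, and black bars are list medians. Differences beyond −1 or 1 are mostly open points, and called genes are spread over most lists.

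Most of the panel differed by less than 1, and this includes genes that passed, such as Yap1, Cdk1 and DAXX. For 105 of the 121 genes detected in every cell, the 95% interval of the control-normalized difference lay within −1 and 1, as it did for 102 on the raw scale, and 3 genes had a difference beyond 1. The median SD over cells was 0.340 in MII oocytes, 0.392 in zygotes and 0.283 in zygotes 4 to 14 on the control-normalized scale. On the raw scale it was 0.460, 0.517 and 0.365, beside a median SD of the Ct of 0.177 over the 139 genes detected in 3 samples of 200 pg stem cell RNA. Of the 121 genes, 84 had a difference below zero.

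Detection as such gave no call. Of 156 genes (0% called), 121 were detected in every cell, 33 in some and 2, Hand1 and Smyd1, in none, and none passed Fisher's exact test with Benjamini-Hochberg adjustment. At an unadjusted p of 0.05, 1 gene did. Xist, the RNA of X inactivation, was detected in 4 of 11 MII oocytes (36.4%, exact binomial 95% interval 10.9 to 69.2%) and in 0 of 14 zygotes, which allows up to 23.2%, with a two-sided exact p of 0.0261 and an adjusted p of 1. In these oocytes, 1, 8, 9 and 11, its raw level was 10.5 to 13.0. The Y-linked gene Kdm5d was detected in 1 MII oocyte at a raw level of 4.70 and in no zygote. Pdgfra was detected in 11 of 11 oocytes and 11 of 14 zygotes, and Elf5 in 10 and 9.

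The spread between cells was compared as the absolute deviation from the group median, and limma called none of 121 genes (0% called). At an unadjusted p of 0.05 there were 8, among them Rnf2, L3mbtl3, Dnmt3a, Hells, Kdm1b, Ezh2 and Mtf2, and all 8 were more variable in zygotes. The SD of Dnmt3a, the de novo DNA methyltransferase of the growing oocyte, was 0.253 in oocytes and 1.00 in zygotes, and that of L3mbtl3, an MBT-domain Polycomb gene, was 0.558 and 1.02. In zygotes 4 to 14 alone the SD of Dnmt3a was 1.03 and that of L3mbtl3 1.07. For others part of the zygote SD came with zygotes 1 to 3. Without them it went from 0.775 to 0.422 for Hells, 0.581 to 0.378 for Rnf2, 0.784 to 0.504 for Mtf2, 0.381 to 0.318 for Kdm1b and 0.349 to 0.299 for Ezh2. Without zygotes 1 to 3 the spread of Dnmt3a passed (adjusted p = 0.00562), as it did without these and MII oocyte 6 (adjusted p = 0.0160).

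The spread of Dnmt3a came from 6 zygotes. Its control-normalized level was 0.65, 0.44, 1.36, 0.23, −0.25 and 0.09 in zygotes 4, 6, 8, 10, 11 and 12, and it lay between −1.63 and −1.27 in the other 8 and between −1.57 and −0.64 in the oocytes. L3mbtl3 was −2.70, −3.52, −2.21, −3.13, −3.65 and −3.93 in the same zygotes, between −5.49 and −4.11 in the other 8 and between −6.13 and −3.99 in the oocytes. These 6 zygotes were higher than every oocyte and every other zygote for both genes, which the group means do not show.

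Many other genes of the panel followed Dnmt3a from cell to cell. Over the 14 zygotes and 119 other genes, Pearson's r with Dnmt3a was over 0.9 for 4 genes, Mll3 (0.94), Prdm6 (0.92), Phf2 (0.91) and L3mbtl3 (0.90), and in zygotes 4 to 14 alone all 4 again had r over 0.9. Setdb1, an H3K9 methyltransferase, followed with 0.88. Further down the ranking r was still 0.76 for Ezh2 and 0.71 for Hells, with many genes between, so that these genes are not a small set of their own. The most opposed genes were Klf4 (−0.85) and Hira (−0.83), although on the raw scale these were −0.23 and −0.21. Over the 11 MII oocytes no gene had r over 0.9 on the control-normalized scale. On the raw scale 5 genes did there, ASF1B (0.93), Kdm5c (0.92), Hells (0.92), Hat1 (0.90) and Dnmt3b (0.90), and 5 in zygotes, Nsd1 (0.94) and the 4 above. On the control-normalized scale the r of Mll3, an H3K4 methyltransferase, was 0.50 in the oocytes, and 0.83 without MII oocyte 6. For Phf2, Prdm6 and L3mbtl3 r was 0.19, 0.13 and 0.11 in the oocytes, and 0.44, 0.18 and 0.08 without MII oocyte 6. Of the genes that differed between the groups, Jmjd5 had r = 0.86 with Dnmt3a in zygotes, Fgfr2 0.76, Cxxc1 0.76, Jarid2 0.73, Mapk3 0.68, Jmjd6 −0.67, Dmap1 0.41, Tada2a 0.34 and Yap1 0.17. The control mean had r = −0.22 with Dnmt3a over all zygotes and 0.56 over zygotes 4 to 14, and the number of undetected genes r = −0.37 and −0.15. All values of a cell come from 1 preamplified sample and share its control mean, so that these correlations are descriptions of 14 or 11 cells, and their source was not tested.

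**Figure D5:**
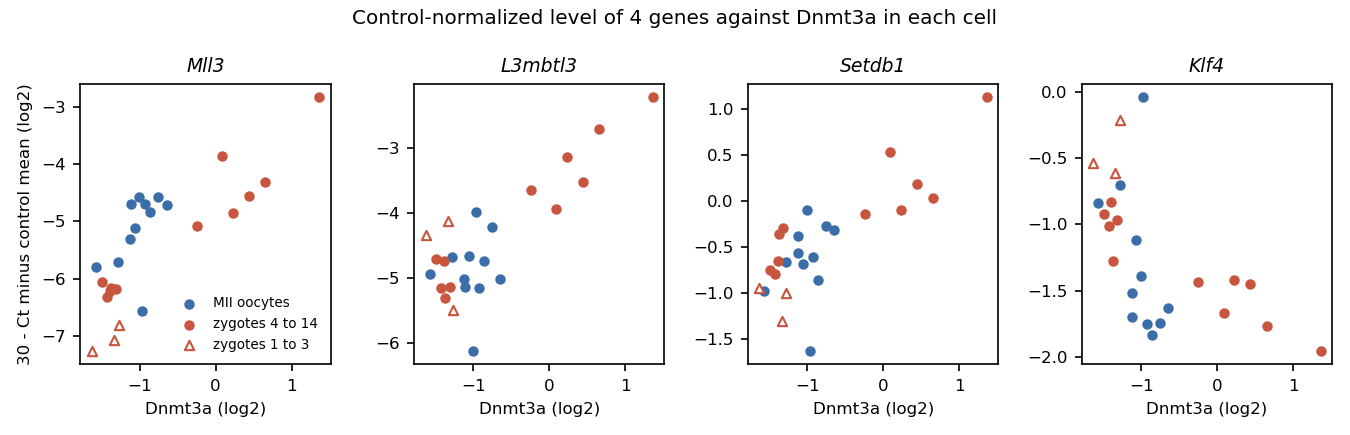
Control-normalized level (log2) of Mll3, L3mbtl3, Setdb1 and Klf4 against that of Dnmt3a, 1 point per cell; blue points are MII oocytes, red points zygotes 4 to 14 and open triangles zygotes 1 to 3. Of the red points, 6 form the right-hand part of each panel beyond all oocytes, and they lie above the other zygotes in Mll3, L3mbtl3 and Setdb1 and below them in Klf4.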

How the data were processed

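Single oocytes and zygotes were assayed by quantitative PCR for 192 genes after preamplification with all assay primers. The authors deposited the Ct from the BioMark software, treated here as a score in PCR cycles, with undetected genes set to 30 (2 of the values of the 25 cells lie above 30). A second deposited file holds values on a log2 scale and equals 30 minus the Ct relative to Gapdh, Hspa8 and Lmnb1 to within 1.03e-08, and its quality column marks 36 assays as not passed, these 3 included. The study's methods name Hnrnpr, Ssu72 and Ube2e1 as controls, which were used here. Sensitivity is described by control Ct and undetected genes, and groups follow the sample labels. Levels were compared with limma 3.58.1 (lmFit and eBayes, R 4.3.3) over 156 genes on each scale, two-sided, with Benjamini-Hochberg adjustment and a threshold of 0.05, detection with Fisher's exact test, spread with limma on absolute deviations, and single values with 100000 permutations. The limma script was tested on simulated data. The members and gene lists were chosen with earlier results of these data known. Genes named are all that passed, the controls, Tada2a, Dmap1, Yap1 and the member of each list with the smallest p. Other genes were named after their values were seen. Symbols matched the RefSeq table (GRCm38.p6) for 144 genes and synonyms for 12. Gene coordinates come from it, and assay positions and sequences were not used here. Alternatives covered samples, filters, control genes, scaling, test and model. The values of 1 gene are not reported here.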

Additional observations from a re-analysis of the deposited data

How the results depend on the processing

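Of the genes named, none called on a scale in the full comparison turned in direction on that same scale. Across scales some did. DAXX, Jmjd6 and Cdk1, called lower on the control-normalized scale alone, had raw differences of 0.45, 0.37 and 0.31 in zygotes 1 to 3. Trim28 on the raw scale, which was not called there (−0.41), was called 0.51 higher in zygotes 1 to 3 alone. In 21 further combinations of gene, scale and alternative the sign differed without a call in either fit. Yap1 passed in all 43 alternatives on the control-normalized scale, Tada2a and Dmap1 in 42, Fgfr2, Mapk3 and Hat1 in 41, Mecom in 25 and Atrx in 14. The control-normalized count of 21 was 4 with MII oocyte 5 added, 3 with all stages in the fit (Tada2a, Dmap1 and Yap1), 11 with the sample median or with the deposited normalized table, and 71 with zygotes 1 to 3 alone or as a group of their own in the fit, alternatives chosen after the data were seen, as was leaving out these and MII oocyte 6. The raw count of 7 was 1 with MII oocyte 5 added, 0 with all stages in the fit by limma (7 at an unadjusted p of 0.05), 21 without zygotes 1 to 3, 28 without these and MII oocyte 6, and 27 (22 higher) with zygotes 1 to 3 alone. With 1 cell left out at a time the control-normalized count was 18 to 30, the highest without MII oocyte 6, and the raw count 6 to 13, with 12 without MII oocyte 8 and 13 without zygote 1. The difference of the control mean was then −0.091 to 0.053 and that of undetected genes 2.06 to 2.96, with an adjusted p below 0.05 without MII oocyte 4, 6 or 12 or zygote 10, 11, 13 or 14. Atrx then passed in 7 of 25 fits, Mecom in 16 and Pecam1 in 20, and the other control-normalized calls in all 25. With MII oocyte 5 added the difference of the control mean was 0.169 and that of the median raw level 0.092. Without Hnrnpr the control mean differed by 0.128 and 29 genes passed. The spread count of 0 was 1 without zygotes 1 to 3 and 2 without these and MII oocyte 6.

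Equal numbers in the names do not pair oocytes with zygotes: over 11 pairs the correlation of deviations was −0.418 to 0.433, with a median of −0.173 and 3 pairs over 0.1. With the replicate block the control-normalized count was 8 and the raw count 6.

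Cells come from unstated females and PCR runs, so that group and collection cannot be told apart. The assays give no molecule counts, and genes at the detection limit carry values set by the baseline of 30.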
